A study of Mus musculus with 4 samples.

Results

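Narrow regions of open chromatin at the start or end of a single gene were examined in mouse DN3 thymocytes, where 5658 such regions were found. They make up 33.8% of the 16761 regions called in all 4 ATAC-seq libraries and 15.6% of the 36224 regions called in any. ATAC-seq maps open chromatin with a transposase that inserts sequencing adapters where DNA is accessible. A region is the merged span of peaks that overlap across libraries by at least 1 bp on chromosomes 1 to 19, X and Y. It was kept when all 4 libraries had a peak in it, when its strongest summit lay within 1000 bp of a start or end of exactly 1 RefSeq protein-coding gene (mm10), and when its merged width was under 1000 bp. The regions were thus chosen by measured values, namely the peak calls, the merged widths and the summit positions, and those values are given as descriptions.

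The cells came from the thymus of wild-type mice. DN3 cells are double-negative thymocytes, precursors without CD4 and CD8 that rearrange the T cell receptor beta gene. They were sorted by flow cytometry and then passed over a magnetic separator after labelling with a biotin-coupled antibody against EpCAM, an adhesion molecule best known from epithelia. The EpCAM-positive fraction is what the magnetic beads held, and the EpCAM-negative fraction is what was left unlabelled. Each fraction has 2 libraries, made with a Vazyme TruePrep kit. The labels give no age, sex or number of mice and do not tie the libraries to separate animals. Differences between libraries of 1 fraction may thus be technical.

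The EpCAM-positive lists held 26029 and 29030 peaks and the EpCAM-negative lists 24598 and 25924. The lowest −log10 q-value of a peak was 2.07 and 2.02 in the EpCAM-positive lists, against 1.32 and 1.34 in the EpCAM-negative ones. The lists thus end at unlike levels of significance, and their lengths are not directly comparable. The background that the peaks imply was 0.388 and 0.383 fragments per position in the EpCAM-positive libraries, against 0.290 and 0.286 in the EpCAM-negative ones, which is the only measure of depth that the files give. At Epcam itself, both EpCAM-positive lists had a peak with its summit close to the gene's nearer end, at 182 and 816 bp in replicate 1 and at 119 bp in replicate 2, which had another at 1018 bp. Their pileups were 8 to 13 fragments. The EpCAM-negative replicate 1 list had no peak with its summit within 1000 bp of an Epcam end, and replicate 2 had 1 peak with its summit 1084 bp from it and a pileup of 10 fragments. Of 12 genes listed for DN3 cells, which include the earlier double-negative markers Kit and Cd44, 5 had a peak at a gene end in all 4 libraries (Il2ra, Notch1, Bcl11b, Cd3e and Kit), and Dntt and Gata3 had none there in any library. Among genes of other cells the number with a peak at a gene end in all 4 libraries was 1 of 6 for thymic epithelium (Aire), 0 of 4 for B cells, 0 of 5 for myeloid and dendritic cells, 0 of 3 for erythroid cells and 0 of 4 for NK cells. In 3 libraries such a peak was found at the myeloid gene Itgam and the NK gene Tbx21, as at the DN3 gene Ptcra. The DN3 genes Rag1, Rag2 and Tcf7 had one in 2 libraries.

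A promoter is the stretch around a gene's start where the transcription machinery assembles. At genes that most cells use, it is usually free of nucleosomes, rich in CpG dinucleotides, and bound by widely expressed factors such as the ETS, SP/KLF, NRF1, NF-Y and YY1 proteins. Genes that define a cell's identity more often have broad open promoters or depend on enhancers far from the start. In DN3 cells these include the genes of the pre-T cell receptor, of Notch signalling and of V(D)J recombination.

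The promoters of 7 genes show examples of narrow regions in sequence. Each belongs to the region with the highest lowest rank over the 4 libraries among those considered with a given motif. Only regions with the summit inside the promoter window were considered, and not from every chromosome. The motifs are the 7 of 16 most over-represented among narrow regions relative to all promoters. The windows run from 250 bases before the start to 50 bases after it, 5′ to 3′ on the gene's strand, from RefSeq (GRCm38.p6). Capitals mark the motif named here, on either strand. They are GCGCATGCG of NRF1 in Wdfy2 (chr14:62837440-62837739, plus strand), AAGATGGCG of YY1 in Hspbp1 (chr7:4684932-4685231, minus strand) and TCTCGCGA, bound by BANP and ZBTB33, in Zfp317 (chr9:19621841-19622140, plus strand), which holds it at 2 places. They are TTTCCCGC of E2F factors in Ccdc28a (chr10:18234932-18235231, minus strand) and CCGGAAG of ETS factors in Mib2 (chr4:155669205-155669504, minus strand). They are TGACGTCA of CREB and ATF factors in Zscan20 (chr4:128610049-128610348, minus strand) and GGGGCGGGG of SP and KLF factors in Cep43 (chr17:8165268-8165567, plus strand), at 2 places. A match is a run of letters and not evidence of a bound factor.
Wdfy2: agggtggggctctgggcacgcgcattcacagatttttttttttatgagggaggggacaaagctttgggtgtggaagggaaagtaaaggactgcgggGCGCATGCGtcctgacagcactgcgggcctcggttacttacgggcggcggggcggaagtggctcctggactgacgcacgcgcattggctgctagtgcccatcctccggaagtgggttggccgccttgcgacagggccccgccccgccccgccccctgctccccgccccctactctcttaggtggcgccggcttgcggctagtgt
Hspbp1: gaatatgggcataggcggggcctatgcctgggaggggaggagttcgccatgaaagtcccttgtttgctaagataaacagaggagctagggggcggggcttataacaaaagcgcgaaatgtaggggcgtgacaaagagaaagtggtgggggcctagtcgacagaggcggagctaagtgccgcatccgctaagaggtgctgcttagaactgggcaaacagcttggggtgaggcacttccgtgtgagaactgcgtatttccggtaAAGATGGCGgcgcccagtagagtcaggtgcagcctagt
Zfp317: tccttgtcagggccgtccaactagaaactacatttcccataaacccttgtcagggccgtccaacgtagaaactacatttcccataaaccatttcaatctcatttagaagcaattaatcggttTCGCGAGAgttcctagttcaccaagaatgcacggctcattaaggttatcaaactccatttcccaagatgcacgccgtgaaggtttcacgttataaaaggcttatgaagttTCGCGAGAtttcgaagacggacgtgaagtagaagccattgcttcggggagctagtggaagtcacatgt
Ccdc28a: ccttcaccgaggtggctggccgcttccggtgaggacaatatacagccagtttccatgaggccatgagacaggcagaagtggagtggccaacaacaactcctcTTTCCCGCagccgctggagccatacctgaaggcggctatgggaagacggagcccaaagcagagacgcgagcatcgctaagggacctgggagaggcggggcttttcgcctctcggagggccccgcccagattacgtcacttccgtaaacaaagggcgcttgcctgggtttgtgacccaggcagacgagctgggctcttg
Mib2: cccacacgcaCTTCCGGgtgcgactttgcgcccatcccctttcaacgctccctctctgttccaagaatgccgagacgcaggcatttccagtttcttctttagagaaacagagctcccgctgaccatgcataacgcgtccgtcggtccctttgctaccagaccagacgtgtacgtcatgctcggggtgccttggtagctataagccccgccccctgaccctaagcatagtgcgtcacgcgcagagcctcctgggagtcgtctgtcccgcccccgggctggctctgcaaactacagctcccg
Zscan20: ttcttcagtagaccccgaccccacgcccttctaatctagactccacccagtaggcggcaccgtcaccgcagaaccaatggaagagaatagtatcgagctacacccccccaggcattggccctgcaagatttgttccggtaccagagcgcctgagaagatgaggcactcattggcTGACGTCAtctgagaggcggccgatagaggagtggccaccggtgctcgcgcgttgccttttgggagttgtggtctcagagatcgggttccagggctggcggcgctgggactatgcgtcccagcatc
Cep43: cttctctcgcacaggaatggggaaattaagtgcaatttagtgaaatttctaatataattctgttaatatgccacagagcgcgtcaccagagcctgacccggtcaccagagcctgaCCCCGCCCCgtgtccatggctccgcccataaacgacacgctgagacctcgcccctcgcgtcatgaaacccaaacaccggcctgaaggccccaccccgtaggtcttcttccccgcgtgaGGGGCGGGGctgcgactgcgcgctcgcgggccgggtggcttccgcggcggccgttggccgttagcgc

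A further 4 promoters belong to regions whose rank differed most between the fractions among those with the summit inside the promoter window, and were chosen after their values were seen. Dhtkd1 (chr2:5942743-5943042, minus strand) and Stx11 (chr10:12964210-12964509, minus strand) ranked higher in EpCAM-positive libraries. Cst7 (chr2:150570165-150570464, plus strand) and H2-D1 (chr17:35262844-35263143, plus strand) ranked higher in EpCAM-negative libraries. Capitals mark every match to the 16 motifs searched. These are CACGTG of MYC, MAX and USF factors in Dhtkd1, GGGGCGGGG and the E protein motif CAGCTG in Stx11, the AP-1 motif TGANTCA in Cst7, and the NF-Y motif CCAATCA and the TATA box TATAAA in H2-D1. The Cst7 window had a CpG content of 0.237 of that expected from its base composition, against 0.653 in H2-D1, 0.578 in Dhtkd1 and 0.714 in Stx11.
Dhtkd1: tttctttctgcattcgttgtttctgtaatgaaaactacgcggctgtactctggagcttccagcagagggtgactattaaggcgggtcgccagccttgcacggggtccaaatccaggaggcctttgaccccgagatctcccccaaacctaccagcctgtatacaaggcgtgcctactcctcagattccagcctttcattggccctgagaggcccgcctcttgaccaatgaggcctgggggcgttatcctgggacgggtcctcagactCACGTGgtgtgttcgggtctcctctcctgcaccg
Stx11: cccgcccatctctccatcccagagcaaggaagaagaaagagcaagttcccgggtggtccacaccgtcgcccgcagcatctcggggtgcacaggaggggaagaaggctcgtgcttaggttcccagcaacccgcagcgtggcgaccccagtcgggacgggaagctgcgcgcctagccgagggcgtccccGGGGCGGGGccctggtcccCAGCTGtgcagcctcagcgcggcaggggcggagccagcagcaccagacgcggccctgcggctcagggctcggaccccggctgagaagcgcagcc
Cst7: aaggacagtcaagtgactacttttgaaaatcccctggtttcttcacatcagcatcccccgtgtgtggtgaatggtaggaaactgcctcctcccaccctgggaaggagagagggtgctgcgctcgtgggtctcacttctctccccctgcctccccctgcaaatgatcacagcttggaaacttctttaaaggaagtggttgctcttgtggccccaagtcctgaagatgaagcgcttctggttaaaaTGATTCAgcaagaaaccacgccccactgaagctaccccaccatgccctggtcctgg
H2-D1: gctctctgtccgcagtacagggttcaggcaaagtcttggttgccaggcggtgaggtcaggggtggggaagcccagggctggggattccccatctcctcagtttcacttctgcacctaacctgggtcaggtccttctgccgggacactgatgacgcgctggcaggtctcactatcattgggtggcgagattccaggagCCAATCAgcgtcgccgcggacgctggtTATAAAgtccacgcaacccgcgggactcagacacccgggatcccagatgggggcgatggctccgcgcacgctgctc

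Nearly all narrow regions with a known gene strand sat at the gene's start. The gene's strand could be read for 4597 regions, and 4406 of these (95.8%) had their summit nearer to the start than to the end of the gene. The remaining 191 regions were at the end, and for 1061 more the strand was not given. For wide regions, which met the same rule but spanned 1000 bp or more, 804 of 816 (98.5%) were at the start. The 5658 narrow regions belonged to 5517 genes, 25.2% of the 21887 protein-coding genes. Of these genes 139 had 2 narrow regions and Ivd, encoding isovaleryl-CoA dehydrogenase, had 3, and 48 genes had one region at the start and one at the end.

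At gene starts the summit lay just inside the gene. Its median position was 99 bp downstream of the annotated start, with a middle range of -51 to 184 bp. On the plus strand the median was 94 bp and on the minus strand 103 bp. Measured from the nearest start in the promoter table, which lists several starts for some genes, the median was 52 bp. Of the 4406 regions, 3108 (70.5%) had their summit inside the gene and 3102 (70.4%) within 200 bp of the annotated start. The 200 bp downstream of the start held 2152 summits, and the 200 bp upstream held 946. At gene ends no such position stood out, with a median of -27 bp and a middle range of -506 to 505 bp.

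**Figure D1:**
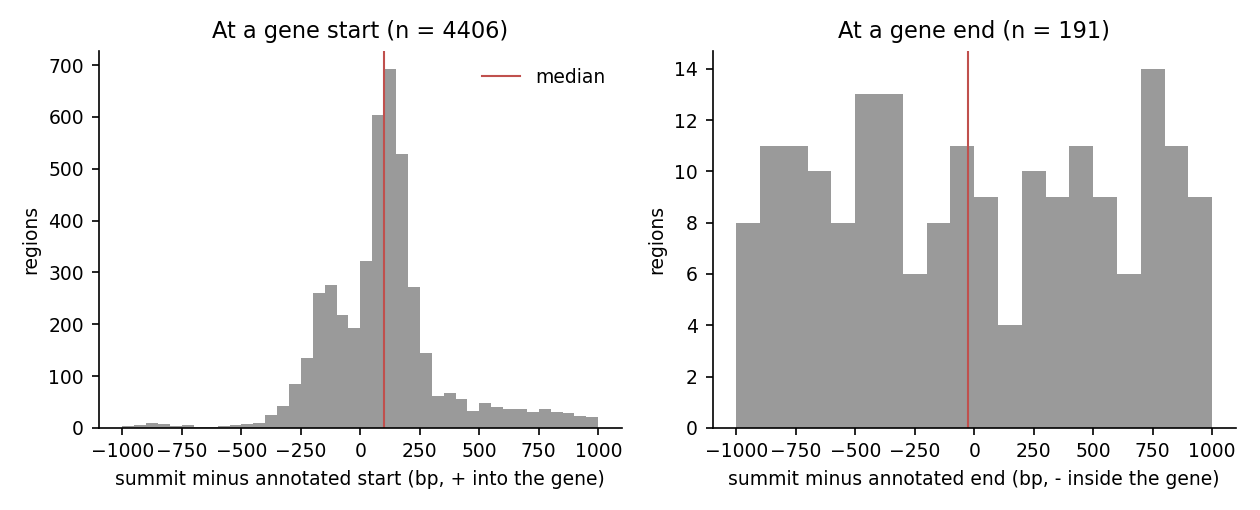
Number of narrow regions by the position of their strongest summit relative to the annotated start (left, 4406 regions, bins of 50 bp, positive values inside the gene) or the annotated end (right, 191 regions, bins of 100 bp, negative values inside the gene). The red line is the median. Summits gather downstream of the start, at a median of 99 bp, and spread over the whole window around the end.

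Regions farther into the gene were weaker. The strength of a region was taken as the percentile of its fold enrichment over local background among the 16761 regions called in all libraries, within each library, and its lowest percentile over the 4 libraries was used to order regions. The fold is the authors' value for each peak and was used to rank peaks within a list. The median lowest percentile was 56.7 for the 946 summits up to 200 bp upstream, 51.1 for the 2152 summits up to 200 bp downstream, 39.9 for 623 summits 200 to 500 bp downstream and 25.2 for 330 summits beyond 500 bp. The 355 summits more than 200 bp upstream had a median of 47.9.

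The position of a region's summit varied little between libraries. The 4 summits of a region spanned a median of 83 bp. Between the EpCAM-positive libraries the median difference was 38 bp, and between the EpCAM-negative libraries 35 bp. Across fractions it was 33 to 44 bp, a range that holds both values from within a fraction. The folds of the 5658 regions correlated across regions with a Spearman rho of 0.863 between the EpCAM-positive libraries, 0.864 between the EpCAM-negative libraries and 0.823 to 0.863 across fractions. These regions share the libraries' depth and background, and the values are descriptions.

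Peaks at narrow regions were wider in the EpCAM-positive lists. Their median width was 626 and 582 bp in EpCAM-positive libraries, against 528 and 495.5 bp in EpCAM-negative libraries. Both EpCAM-positive values were above both EpCAM-negative ones. The mean of the medians was 604 ± 31.1 bp in EpCAM-positive and 512 ± 23.0 bp in EpCAM-negative libraries (SD, n = 2 each), a difference of 92.3 bp. The merged width was used to choose the regions, so these widths are a description. Wide regions differed by 174 bp, at 971 ± 74.6 bp in EpCAM-positive and 797 ± 56.6 bp in EpCAM-negative libraries, and all shared regions by 83.0 bp in the same direction. The background given above was also higher in both EpCAM-positive lists. So was the lowest −log10 q-value of a list, at 2.07 and 2.02 in EpCAM-positive against 1.32 and 1.34 in EpCAM-negative lists. The parts of background and lowest q-value in the width were not tested.

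**Figure D2:**
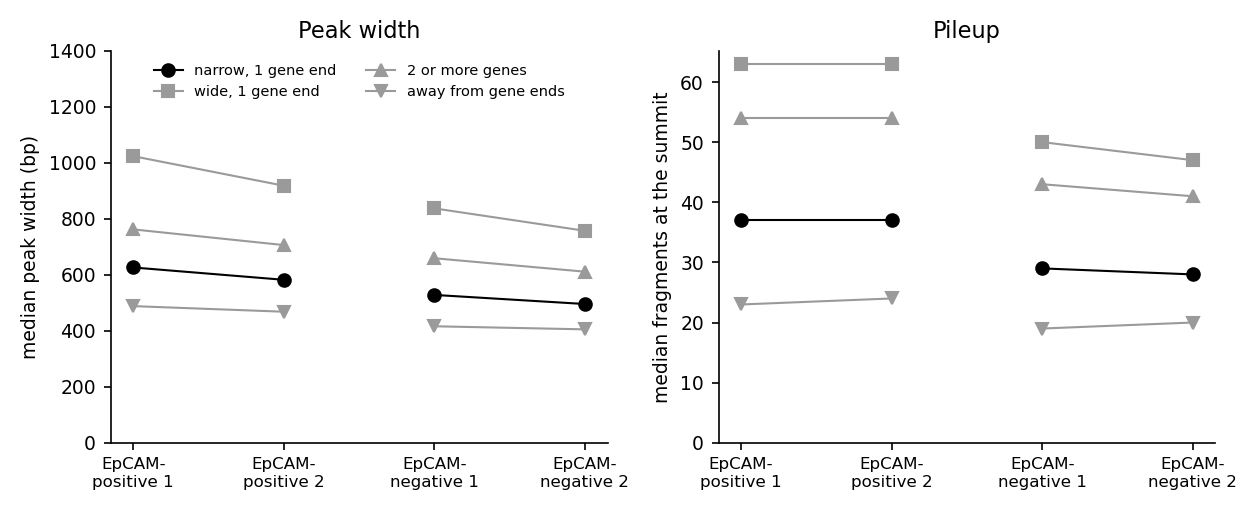
Median peak width in bp (left) and median number of fragments at the summit (right) in the 2 EpCAM-positive and the 2 EpCAM-negative libraries, for narrow regions at 1 gene end (black), and in grey for wide regions at 1 gene end, regions at 2 or more genes and regions away from gene ends. Lines join libraries of 1 fraction. Every class has higher medians in the EpCAM-positive libraries, and narrow regions lie between regions away from genes and those at 2 or more genes.

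The fragments at a peak's summit, its pileup, were worked back from each peak's fold and −log10 p. Narrow regions had a median pileup of 37 and 37 fragments in EpCAM-positive libraries, against 29 and 28 in EpCAM-negative libraries. Relative to the median of all shared regions in the same library, which takes out depth, the values were 1.19 and 1.16 in EpCAM-positive and 1.16 and 1.12 in EpCAM-negative libraries. The means of 1.17 ± 0.0264 and 1.14 ± 0.0283 (SD, n = 2 each) differed by 0.0349 (exact permutation p = 0.67, two-sided). Wide regions had 2.03 and 1.97 in EpCAM-positive and 2.00 and 1.88 in EpCAM-negative libraries, and regions away from gene ends 0.742 and 0.750 against 0.760 and 0.800. The distance of the summit from the gene start had medians of 116 and 94 bp in EpCAM-positive and 97 and 89 bp in EpCAM-negative libraries, again as a description, since the summit position was used to choose the regions.

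The 10 regions with the highest lowest percentile were at Lars2, Acat2, 1700030J22Rik, Mib2, Zfp868, N6amt1, Siah1b, Coq7, Hps3 and Lrpprc. Lars2 encodes the mitochondrial leucyl-tRNA synthetase, and its region (chr9:123461798-123462195) stood apart from the rest. It had a fold of 38.5 and 42.5 in EpCAM-positive libraries and 41.0 and 42.8 in EpCAM-negative libraries, the highest among narrow regions in each library, with 636 and 682 against 619 and 600 fragments. It lay inside the gene, 674 bp from its end and 2207 bp from the nearest start of any gene in the promoter table. The sources used here do not say how reads that match several places were handled, and their part in these counts was not tested. A second narrow region at the Lars2 start had 20 and 32 fragments in EpCAM-positive and 17 and 16 in EpCAM-negative libraries.

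The next strongest region, at Acat2, an enzyme of acetoacetyl-CoA metabolism, had folds of 26.1 and 29.3 in EpCAM-positive and 26.7 and 27.4 in EpCAM-negative libraries, with 158 and 174 against 141 and 148 fragments. Mib2, an E3 ubiquitin ligase that acts on Notch ligands, had 200 and 236 fragments in EpCAM-positive and 202 and 181 in EpCAM-negative libraries. Its summit lay 90 bp upstream of the start. Coq7, an enzyme of ubiquinone synthesis, had 163 and 164 against 127 and 114 fragments, and Lrpprc, which stabilises mitochondrial messenger RNAs, 210 and 211 against 193 and 150. The 9 regions other than that of Lars2 lay at a gene start, and their fractions overlapped in fold percentile or differed by less than 1 point.

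Narrow regions at gene ends were weaker than those at starts. Their median percentile was 35.7 and 33.1 in EpCAM-positive libraries and 36.7 and 36.5 in EpCAM-negative libraries, against 64.4 and 63.5 and against 62.7 and 60.8 for regions at starts. Only 17 of the 191 had a start from the promoter table, of any gene, within 1000 bp, and 99 had the summit inside the gene. After Lars2 the strongest were at Zfp771, Gm29797, Sh2d6 and Zscan10. The Zfp771 region had 112 and 119 fragments in EpCAM-positive libraries and 98 and 92 in EpCAM-negative libraries, and the Zscan10 region 79 and 79 against 71 and 64. Both genes encode zinc-finger proteins. A narrow region also lay at the end of Cd3d, a chain of the CD3 complex, 517 bp inside the gene, with 92 and 77 fragments in EpCAM-positive and 61 and 58 in EpCAM-negative libraries.

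The promoters of narrow regions were GC-rich, though less so than those of wide regions. A promoter window whose start lay within 1000 bp of the summit was found for 4287 regions at starts. Their median GC content was 61.3%, against 66.0% for 783 wide regions, 62.3% for 1902 windows at shared regions of 2 or more genes, and 48.7% for 8121 starts of genes without a peak in any library. The observed CpG count over that expected was 0.794 for narrow regions, 0.863 for wide regions, 0.851 at 2 or more genes and 0.217 at starts without a peak. With GC above 50% and this ratio above 0.6 taken as CpG-rich, 76.4% of narrow regions were CpG-rich, against 89.0%, 84.8% and 12.6%. CpG-rich narrow regions had a median lowest percentile of 52.9 (3276 regions) and the others one of 37.7 (1011 regions).

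Motifs of widely expressed factors were more frequent at narrow regions than at promoters in general, and those of RUNX, GATA, TCF/LEF and E proteins were not. The ETS motif CCGGAAG was in 21.1% of narrow regions' windows, against 16.5% of wide regions, 2.98% of starts without a peak and 8.86% of all 32851 windows of the table. The SP/KLF motif GGGGCGGGG was in 25.6%, against 31.3%, 6.39% and 11.4%. The NRF1 motif GCGCATGCG was in 5.02%, against 4.09%, 0.493% and 1.75%. These are shares of windows and each window counts once, whichever strand holds the motif.

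Further motifs above their share in all windows were the CREB and ATF motif TGACGTCA (4.22% against 1.79%), the YY1 motif AAGATGGCG (3.69% against 1.40%), TCTCGCGA (2.45% against 0.995%), the E2F motif TTTCCCGC (2.61% against 1.07%), the NF-Y motif CCAATCA (12.2% against 7.82%) and the E-box CACGTG (11.8% against 7.15%). The YY1 motif had its median match 19.5 bases downstream of the start, as in Hspbp1 above, where every other motif's median lay upstream. The TATA box TATAAA was less frequent, at 6.09% of narrow regions' windows against 13.6% of all windows. So were the motif AGATAA of GATA factors (5.16% against 11.2%), AP-1 (TGANTCA, 4.01% against 7.81%), RUNX (TGTGGTT, 3.73% against 5.27%), TCF/LEF (CTTTGAA, 3.41% against 5.14%), the IRF motif GAAANNGAA (6.65% against 8.56%) and E proteins (CAGCTG, 14.3% against 16.3%). RUNX, GATA, TCF1 and E proteins are the families best known for T cell development. Base composition differs between these sets as given above, and its part in the shares was not tested.

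**Figure D3:**
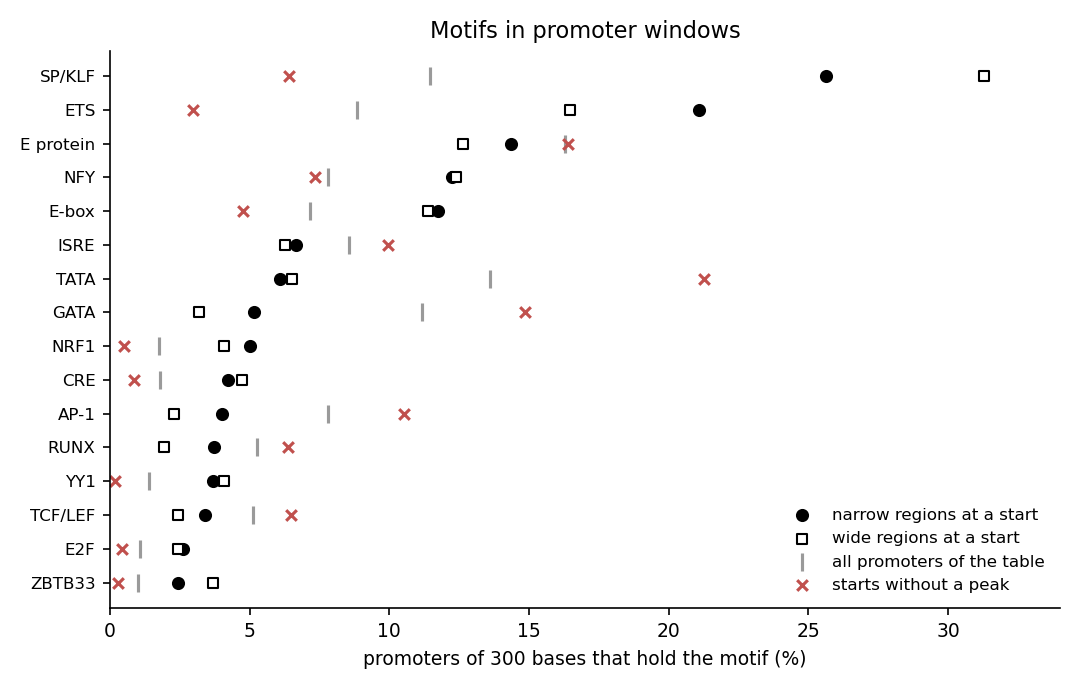
Share of 300-base promoter windows, in percent, that hold each of 16 motifs on either strand, for narrow regions at a start (black circles, 4287 windows), wide regions at a start (open squares, 783), all windows of the promoter table (grey bars, 32851) and starts of genes without a peak (red crosses, 8121). ETS stands at 21.1% for narrow regions and 2.98% at starts without a peak, and TATA at 6.09% and 21.3%.

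Narrow regions with some of these motifs were also stronger. The median lowest percentile was 63.9 for the 525 regions with the NF-Y motif, against 46.8 for those without it. It was 63.3 for the 105 regions with TCTCGCGA against 48.6, 59.3 for the 158 with the YY1 motif against 48.7, and 58.7 for the 215 with the NRF1 motif against 48.5. For TATA it was 41.5 with the motif (261 regions) and 49.7 without. Strength did not follow frequency for every motif. The E-box, more frequent at narrow regions, had 48.2 with the motif and 49.5 without. AP-1, less frequent there, had 55.1 with the motif and 49.0 without.

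Genes of core cell machinery carried narrow regions most often. Of 39 proteasome subunit genes 25 had a narrow region (64.1%), of 83 cytosolic ribosomal protein genes 50 (60.2%), of 55 DNA replication genes 33 (60.0%), of 59 genes of mediator and RNA polymerase II 33 (55.9%) and of 36 genes of respiratory complex I 18 (50.0%). The share over all 21887 protein-coding genes was 25.2%. Spliceosome genes were divided between narrow regions (23 of 53) and regions at the ends of 2 or more genes (23 of 53), and mitochondrial ribosomal protein genes were more often at regions of 2 or more genes (36 of 78) than at narrow ones (29 of 78). Zfp genes, which encode zinc-finger proteins, many of them repressors of the KRAB family, had narrow regions at 192 of 397 genes (48.4%) and wide ones at 16.

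Olfactory receptor and keratin genes had few or no narrow regions. In the lists of thymic epithelium and other blood cells 8.33% to 18.8% of genes had one, against 25.2% of all protein-coding genes. These lists hold only 12 to 17 genes each, and no test was run on the shares. Of 1110 olfactory receptor genes 4 had a narrow region and of 53 keratin genes none. The counts were 3 of 17 for thymic epithelial genes (Cldn4, Aire and Prss16), 2 of 12 for B cell genes (Pou2af1 and Ebf1), 3 of 16 for myeloid and dendritic cell genes (Cebpb, Tcf4 and Cebpa), 1 of 12 for NK and innate lymphoid genes (Prf1) and 2 of 12 for erythroid and megakaryocyte genes (Zfpm1 and Nfe2). The strongest summit at Ebf1 lay 992 bp from the start, and only EpCAM-negative replicate 2 had a summit within 1000 bp of an end of this gene. The region at Aire, the regulator of tissue antigens in the thymic medulla, had 16 and 20 fragments in EpCAM-positive libraries and 12 and 7 in EpCAM-negative libraries. At Prf1, encoding the pore protein perforin, the counts were 21 and 25 against 16 and 20. Aire, Prf1 and the olfactory receptor gene Olfr1507 were called toward EpCAM-positive by the rank rule given below. Nfe2, a transcription factor of megakaryocytes, had 28 and 25 fragments in EpCAM-positive libraries and 35 and 33 in EpCAM-negative libraries, and it and the olfactory receptor gene Olfr312 were called toward EpCAM-negative. The epithelial genes Cldn4 (18 and 18 against 15 and 23 fragments) and Prss16 (20 and 19 against 14 and 19) were called in neither direction.

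**Figure D4:**
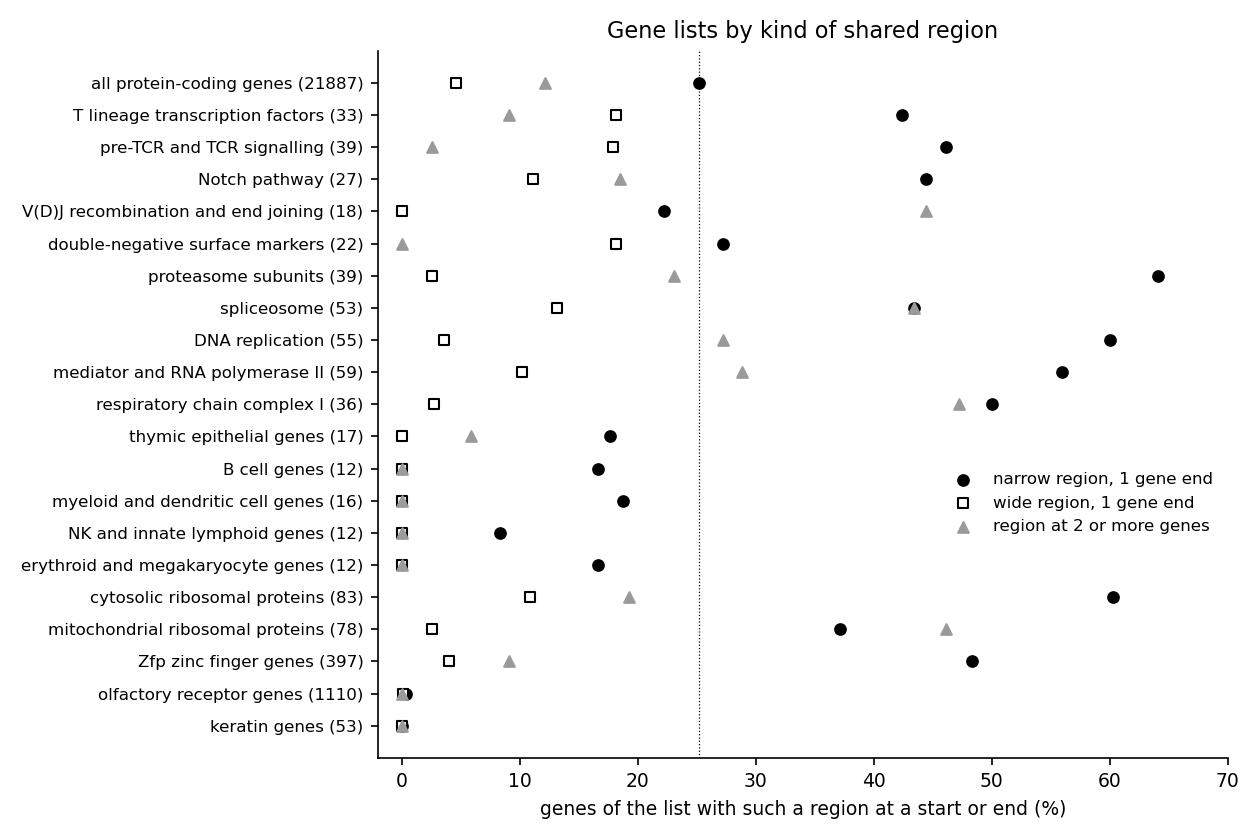
Share of the genes of each list, in percent, with a narrow region at 1 gene end (black circles), a wide region at 1 gene end (open squares) or a shared region at the ends of 2 or more genes (grey triangles); the number of genes is in brackets and the dotted line marks the 25.2% of all protein-coding genes with a narrow region. Proteasome genes reach 64.1%, while olfactory receptor and keratin genes lie at or near 0.

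T cell gene lists differed in how often and how strongly narrow regions marked them. Of 33 transcription factors of the T lineage 14 (42.4%) had a narrow and 6 a wide region. For 39 genes of pre-TCR and TCR signalling these were 18 (46.2%) and 7, and for 27 Notch pathway genes 12 (44.4%) and 3. These narrow shares were above the 25.2% of all protein-coding genes. Of 18 V(D)J recombination and end joining genes 4 (22.2%) had a narrow region, and of 22 surface marker genes 6 (27.3%), near the 25.2% of all genes. For all protein-coding genes the share with a wide region was 4.64%, against 18.2% of T lineage factors, 17.9% of TCR signalling genes and 11.1% of Notch pathway genes. The narrow regions of the factors had a median lowest percentile of 9.05, those of TCR signalling 18.03, of surface markers 15.9 and of the Notch pathway 37.2, against 46.3 for all narrow regions. Those of the 4 V(D)J recombination and end joining genes, Xrcc5, Dclre1c, Hmgb1 and Hmgb2, had 65.6. Rag1, Rag2 and Dntt had no narrow region. Cytosolic ribosomal protein genes had a median of 62.3 and proteasome subunit genes one of 56.2.

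Among T cell genes the strongest narrow region was at Carmil2, an actin regulator of CD28 costimulation, with 99 and 121 fragments in EpCAM-positive and 88 and 103 in EpCAM-negative libraries. Cbl, an E3 ligase that limits receptor signalling, had 98 and 117 fragments in EpCAM-positive and 89 and 85 in EpCAM-negative libraries. Dclre1c encodes Artemis, which opens the hairpin ends made during V(D)J recombination, and had 82 and 98 against 97 and 76 fragments. The fractions overlapped in pileup at Carmil2 and Dclre1c and not at Cbl, and none of the 3 met the rank rule described below. Pileup is not corrected for depth. In fold percentile the fractions overlapped at Cbl, with 85.5 and 92.7 in EpCAM-positive and 92.5 and 91.9 in EpCAM-negative libraries. They also overlapped at Carmil2, while at Dclre1c the EpCAM-negative libraries stood 1.16 points higher.

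Others among the strongest 10 were Hmgb2, a cofactor of the RAG recombinase, Cd3d, Numb of the Notch pathway, Runx3, and the receptor gene Notch2. Hmgb2 had 101 and 128 fragments in EpCAM-positive and 103 and 121 in EpCAM-negative libraries. Runx3, a transcription factor of T cell lineage choice, had 70 and 50 against 45 and 38. Its summit lay 324 bp upstream of its own start and 55 bp from a start listed for another gene. Notch2 had 34 and 38 against 32 and 24 fragments. At the other extreme, Vav1, an exchange factor of TCR signalling, had the lowest rank of these lists in any library, at the 0.152 percentile in EpCAM-positive replicate 2, and the folds at Zap70, the kinase that binds the TCR complex, were 4.87 and 6.27 in EpCAM-positive and 5.27 and 4.71 in EpCAM-negative libraries.

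Few narrow regions differed in rank between the fractions. A region was called when both libraries of a fraction ranked it at least 10 percentile points above both libraries of the other. This held for 348 narrow regions (6.15%) toward EpCAM-positive, against 5.86% of all shared regions, and for 194 (3.43%) toward EpCAM-negative, against 6.09% of all shared regions. The 5116 other narrow regions were called in neither direction. Regions at 2 or more genes had 57 (4.17%) toward EpCAM-positive and 37 (2.71%) toward EpCAM-negative. Wide regions had 24 (2.36%) and 45 (4.43%), and regions away from gene ends had 554 (6.35%) and 745 (8.54%). No test was run on single regions, so these are counts.

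The share toward EpCAM-positive lay near that of all shared regions, and the share toward EpCAM-negative lay below it. Narrow regions had more calls toward EpCAM-positive than toward EpCAM-negative, and this balance depended on what they were ranked among. Their median percentile was 62.7 and 61.9 in EpCAM-positive libraries, against 61.2 and 59.1 in EpCAM-negative libraries, a difference of 2.16 points (exact permutation p = 0.33, two-sided, n = 2 each, the smallest p that 2 libraries against 2 can give). Ranked among narrow regions alone, 268 were called toward EpCAM-positive and 261 toward EpCAM-negative, so the calls divided 50.7% to EpCAM-positive in place of 64.2%. Leaving out a library lets more regions pass, since fewer values must stand apart. With EpCAM-positive replicate 1 left out, 725 regions (12.8%) were called toward EpCAM-positive and 566 (10.0%) toward EpCAM-negative. Of all shared regions 13.0% and 13.1% were. With EpCAM-positive replicate 2 out the counts were 895 (15.8%) and 576 (10.2%), against 14.6% and 14.5% of all shared regions. They were 954 (16.9%) and 517 (9.14%) when EpCAM-negative replicate 1 was dropped, against 14.3% and 14.6%. They were 790 (14.0%) and 588 (10.4%) when its replicate 2 was, against 13.3% and 13.7%. Of the 348 regions called toward EpCAM-positive, 346 had more fragments in both EpCAM-positive libraries than in both EpCAM-negative ones. Of the 194 called toward EpCAM-negative, 71 had more fragments in both EpCAM-negative libraries, beside the higher background of the EpCAM-positive ones. Among the 5116 regions called in neither direction, 2785 had more fragments in both EpCAM-positive libraries and 43 in both EpCAM-negative ones. Pileup was worked back from the same folds that gave the ranks, so these counts are no separate check on the calls.

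The share of calls is given here by position, width and strength, beside 6.15% toward EpCAM-positive and 3.43% toward EpCAM-negative over all narrow regions. Toward EpCAM-positive, 7.25% of summits up to 200 bp downstream of the start and 8.03% of those 200 to 500 bp downstream were called, against 3.70% of those up to 200 bp upstream and 5.63% of those farther upstream. Toward EpCAM-negative the shares were 2.83%, 2.57%, 4.33% and 4.23%. Among regions of 800 to 1000 bp, 3.60% were called toward EpCAM-positive and 3.54% toward EpCAM-negative. At 600 to 800 bp the shares were 7.26% and 3.03%, at 400 to 600 bp 7.63% and 3.57%, and under 400 bp 6.86% and 5.23%. Regions with a mean percentile of 80 to 100 were rarely called (0.994% and 0.923%), as were shared regions in general there (1.07% and 1.14%). Those with a mean percentile of 0 to 20 had 3.64% and 2.64%, and those of 20 to 40 had 10.2% and 5.84%.

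**Figure D5:**
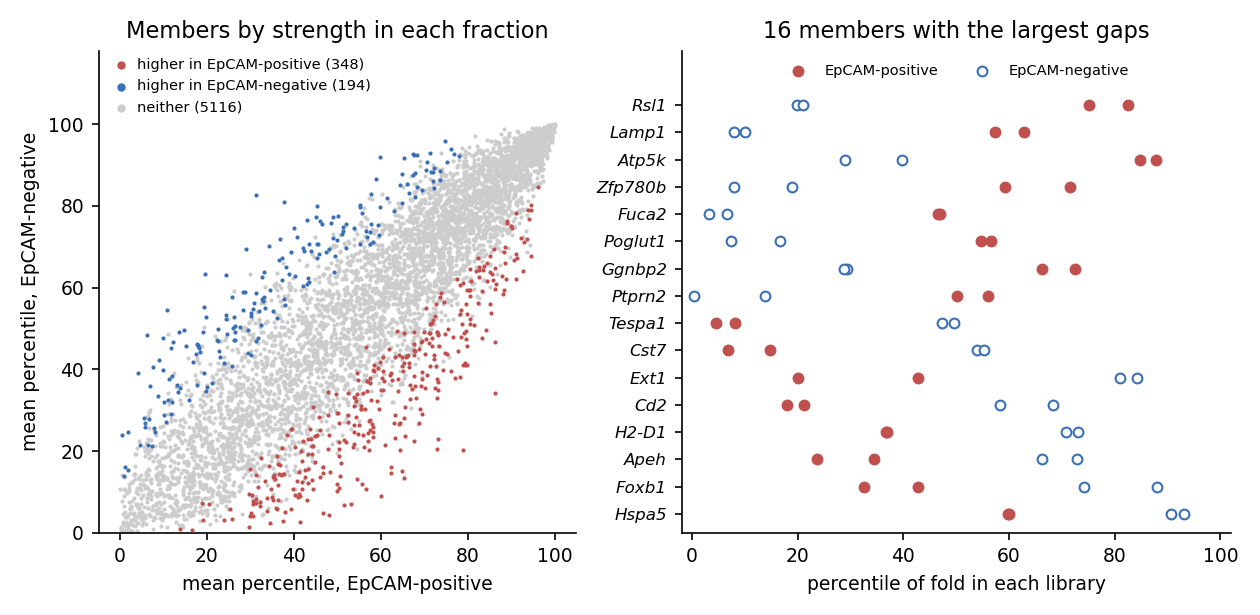
Left, each narrow region by its mean fold percentile in the 2 EpCAM-positive libraries (horizontal) and the 2 EpCAM-negative libraries (vertical), with the 348 regions called toward EpCAM-positive in red, the 194 toward EpCAM-negative in blue and the rest in grey. Right, the percentile in each library of the 16 regions with the largest gaps (filled, EpCAM-positive; open, EpCAM-negative); the open and filled points of a gene do not overlap, which is how these genes were chosen.

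The largest gap toward EpCAM-positive was at Rsl1, which encodes a KRAB zinc-finger repressor known from mouse liver. Its region (chr13:67172915-67173629) had 36 and 28 fragments in EpCAM-positive libraries and 11 and 11 in EpCAM-negative libraries. Its percentiles were 82.5 and 75.1 in EpCAM-positive, against 19.8 and 20.9 in EpCAM-negative libraries. The EpCAM-positive values were high and the EpCAM-negative ones low, with a gap of 54.2 points.

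The region at Lamp1, a glycoprotein of the lysosomal membrane, had 26 and 22 fragments in EpCAM-positive and 10 and 9 in EpCAM-negative libraries. Atp5k, encoding a subunit of the mitochondrial ATP synthase, had 43 and 41 against 14 and 17, and a region 846 bp inside Ggnbp2 had 83 and 87 against 38 and 36. Each was higher in both EpCAM-positive libraries. The summit of this Ggnbp2 region lay 14 bp from a start that the promoter table lists for another gene. A second narrow region at Ggnbp2, 218 bp inside the gene, was called toward EpCAM-negative, with 68 and 69 against 66 and 66 fragments and percentiles of 54.5 and 45.8 against 76.3 and 78.7. Poglut1, an enzyme that adds glucose to Notch receptors, had 18 and 17 against 8 and 7 fragments, few in either fraction. The other genes of the 8 with the largest gaps were Zfp780b, the fucosidase gene Fuca2, at a region 957 bp upstream of its start, and Ptprn2, with gaps of 40.4, 40.1 and 36.4 points. Ranked by pileup the 8 gaps were 15.3 to 31.5 points.

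The largest gap toward EpCAM-negative was at Tespa1, a gene named for its expression in thymocytes that is needed for TCR signalling in their selection. Its region (chr10:130322587-130323127), with its summit 1 bp outside the gene, had 11 and 10 fragments in EpCAM-positive and 19 and 19 in EpCAM-negative libraries. Its percentiles were 8.08 and 4.50 in EpCAM-positive, against 47.3 and 49.7 in EpCAM-negative libraries. Both EpCAM-negative values were higher than both EpCAM-positive ones on each scale.

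Cst7, encoding cystatin F, an inhibitor of lysosomal proteases in cytotoxic cells, had 15 and 13 fragments in EpCAM-positive and 24 and 21 in EpCAM-negative libraries. Cd2, an adhesion receptor of T cells, had 17 and 20 against 28 and 25, in a region 921 bp outside the gene. The fractions did not overlap at either gene. H2-D1, a heavy chain of class I MHC, had 42 and 41 fragments in EpCAM-positive and 49 and 49 in EpCAM-negative libraries. Apeh, a peptidase, had 21 and 28 against 37 and 30, and the forkhead gene Foxb1 21 and 25 against 31 and 38. The Foxb1 summit lay 48 bp from a start that the promoter table lists for another gene. Ext1, a polymerase of heparan sulfate, had 30 and 23 against 38 and 32. Hspa5, the chaperone BiP of the endoplasmic reticulum, ranked higher in EpCAM-negative libraries but had fewer fragments there, with 143 and 145 fragments in EpCAM-positive and 124 and 124 in EpCAM-negative libraries. Its gap of 30.7 points was 0.170 points by pileup and 2.79 by −log10 p, while the other 7 kept gaps of 13.3 to 28.9 points by pileup.

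Of the T cell lists together, 53 of 137 genes had 57 narrow regions, and 1 was called toward EpCAM-positive and 4 toward EpCAM-negative. Over all narrow regions the shares were 6.15% and 3.43%, and over all shared regions 5.86% and 6.09%. The 1 was Foxo1, a transcription factor of T cell homeostasis, with 47 and 38 fragments in EpCAM-positive and 28 and 23 in EpCAM-negative libraries. The 4 were Tespa1, Cd2, Ubash3a and Aph1a. Ubash3a, a suppressor of TCR signalling, had 21 and 24 against 22 and 28 fragments, and Aph1a, a subunit of the γ-secretase that cleaves Notch, 28 and 38 against 38 and 49. In pileup the fractions overlapped at Ubash3a and shared a value at Aph1a, and their gaps by pileup were 7.13 and 9.84 points. The gap at Foxo1 was 13.1 points by fold, 3.98 by pileup, 9.36 by −log10 p and 8.33 among narrow regions alone. Of the 21 narrow regions of pre-TCR and TCR signalling, none was called toward EpCAM-positive and 3 toward EpCAM-negative. Without EpCAM-positive replicate 1 the counts were 2 and 4, and without its replicate 2 they were 0 and 4. Without EpCAM-negative replicate 1 they were 2 and 5, and without its replicate 2 they were 2 and 4. Leaving out 1 library, 12.8% to 16.9% of all narrow regions were called toward EpCAM-positive and 9.14% to 10.4% toward EpCAM-negative.

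Of the Zfp genes' 198 narrow regions 21 (10.6%) were called toward EpCAM-positive, against 6.15% of all narrow regions, and 3 (1.52%) toward EpCAM-negative, against 3.43%. By pileup the counts were 11 and 1, where 4.29% and 2.00% of all narrow regions were called. By −log10 p they were 13 and 3, where 5.09% and 2.26% were, and among narrow regions alone 19 and 6, where 4.74% and 4.61% were. Without EpCAM-positive replicate 1 the counts were 32 and 14, and without its replicate 2 they were 46 and 12. Without EpCAM-negative replicate 1 they were 45 and 13, and without its replicate 2 they were 34 and 12. In the same order, 12.8% and 10.0%, 15.8% and 10.2%, 16.9% and 9.14%, and 14.0% and 10.4% of all narrow regions were called. The genes sit in clusters, and 7 of the 21 were on chromosome 17, where 31 of the 198 regions lay, and 5 on chromosome 7, where 44 lay.

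On chromosome 17 the 7 were Zfp948, Zfp820, Zfp994, Zfp945, Zfp799, Zfp952 and Zfp763. Zfp763 had 44 and 39 fragments in EpCAM-positive and 26 and 26 in EpCAM-negative libraries, and Zfp945 had 24 and 18 against 8 and 11. On chromosome 7 the 5 were Zfp773, Zfp780b, Zfp30, Zfp568 and Zfp82, and Zfp773 had 21 and 19 against 7 and 9 fragments. The EpCAM-positive libraries were higher at each of these. Zfp119a, Zfp260 and Zfp507 were called toward EpCAM-negative. Zfp507 had 28 and 27 fragments in EpCAM-positive and 32 and 27 in EpCAM-negative libraries. Genes of 1 cluster resemble each other in sequence, and the sources used here do not say how reads that match several copies were placed.

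For the remaining lists, ranked by fold in all 4 libraries, the background is 6.15% of all narrow regions toward EpCAM-positive and 3.43% toward EpCAM-negative. By pileup it is 4.29% and 2.00%, and by −log10 p 5.09% and 2.26%. Without EpCAM-positive replicate 1 it is 12.8% and 10.0%, and without its replicate 2 15.8% and 10.2%. Without EpCAM-negative replicate 1 it is 16.9% and 9.14%, and without its replicate 2 14.0% and 10.4%. Proteasome genes had 1 of 25 narrow regions called toward EpCAM-positive (Psmc1, 33 and 37 against 18 and 20 fragments) and 4 toward EpCAM-negative (Psma1, Psma5, Psmc3 and Psmd9). Psma5, a subunit of the catalytic core, had 56 and 54 fragments in EpCAM-positive and 69 and 70 in EpCAM-negative libraries. Ranked by pileup or by −log10 p the counts were 2 and 2, so the balance depended on the ranking. With EpCAM-positive replicates 1 and 2 and EpCAM-negative replicates 1 and 2 left out in turn they were 1 and 5, 5 and 4, 7 and 6, and 3 and 5. Mitochondrial ribosomal protein genes had 4 of 30 called toward EpCAM-positive (Mrpl11, Mrpl9, Mrps18a and Mrps24) and none toward EpCAM-negative, and 4 and 1 by pileup. In the same order of libraries left out, the counts were 7 and 1, 5 and 2, 8 and 2, and 5 and 1. Mrpl11 had 61 and 64 fragments in EpCAM-positive and 32 and 33 in EpCAM-negative libraries. Replication genes had 1 of 33 each way. Rfc4, of the clamp loader, had 64 and 62 against 33 and 27 fragments, and Pold4, a subunit of DNA polymerase delta, 48 and 39 against 49 and 55. Cytosolic ribosomal protein genes had 2 toward EpCAM-positive (Rpl6 and Rpl23a) and 1 toward EpCAM-negative (Rpl13), of 50.

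On the sex chromosomes, 182 narrow regions (3.22%) lay on X, which holds 4.41% of the protein-coding genes, and 4 on Y. The Y regions were at Ddx3y, Eif2s3y, Uty and Gm52481. Eif2s3y, encoding a subunit of initiation factor eIF2, had 39 and 39 fragments in EpCAM-positive and 20 and 16 in EpCAM-negative libraries and was called toward EpCAM-positive. Ddx3y, an RNA helicase gene, had 9 and 10 against 7 and 15 and Uty, a histone demethylase homolog, 17 and 24 against 21 and 12, without a call. The Gm52481 region was called toward EpCAM-negative. On X, 10 regions (5.49%) were called toward EpCAM-positive and 5 (2.75%) toward EpCAM-negative, close to the 6.15% and 3.43% of all narrow regions.

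Just inside the width limit of 1000 bp, the regions of Laptm4a and Rheb were 999 bp wide, with folds of 14.6 and 16.2 (Laptm4a) and 15.0 and 17.2 (Rheb) in EpCAM-positive libraries and 14.9 and 14.9 (Laptm4a) and 15.3 and 18.9 (Rheb) in EpCAM-negative libraries. Just outside it, those of Epb41 and Uvssa were 1000 bp wide, with folds of 8.85 and 9.12 (Epb41) and 17.8 and 19.4 (Uvssa) in EpCAM-positive and 11.9 and 11.6 (Epb41) and 16.6 and 20.4 (Uvssa) in EpCAM-negative libraries. At the distance limit, Slc19a1 (1000 bp) and Ssbp4 (996 bp) were inside, and Fam98c (1003 bp) and Fh1 (1007 bp) outside. Slc19a1 had folds of 12.1 and 12.4 in EpCAM-positive and 9.43 and 14.2 in EpCAM-negative libraries, and Ssbp4 had folds of 3.71 and 3.52 against 3.56 and 4.40. Fam98c had 10.7 and 9.24 against 7.77 and 7.37, and Fh1 11.2 and 9.37 against 9.72 and 9.74.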

How the data were processed

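ATAC-seq was done on EpCAM-positive and EpCAM-negative DN3 thymocytes, with 2 libraries each. Per the submitters' processing notes, MACS3, Bowtie2, Trimmomatic, Trim Galore, Picard, SAMtools, deepTools, FastQC and bedtools were used with the build mm10 (GRCm38). The sources used here do not give their settings. The authors deposited 1 peak list per library, not pooled, with a display score, a fold enrichment (a ratio over local background) and the −log10 of the p-value and q-value of each peak. Read totals are not given, so depth is known only through the background solved from the peaks.

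Peaks were merged into regions and set against RefSeq genes of GRCm38.p6, of which 17492 of 21887 (79.9%) have a strand through the promoter table. Pileup was worked back from each peak's fold and −log10 p with a tolerance of 0.01, for 100% of peaks, with 1 solution for 96.5% to 99.4% per list. Relative pileup and median percentile per library were compared by the exact permutation test, two-sided. Region ranks and motif shares were counted without a test. Regions were given to a fraction when percentiles stood at least 10 points apart. Named genes were the 10 strongest regions, the 8 largest gaps each way and the 5 strongest at gene ends. Also named were the 10 strongest and all called ones of the T cell lists, and those at the limits. For each motif the strongest with its summit inside the promoter window was named. Other genes, among them called members of the other lists, those on Y and the promoters chosen for their gap, were picked after their values were seen. Some genes that this rule names are not reported here. The members and lists were chosen with earlier results of these data known. Regions on the other contigs were left out. Python 3.11.15, pandas 2.3.3, NumPy 2.4.6, SciPy 1.17.1 and matplotlib 3.10.9 were used, and the scripts were tested on simulated data. Alternatives varied the merging, the summit, the distance and width limits, the ranking, the promoter window and the libraries.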

Additional observations from a re-analysis of the deposited data

Results flagged for a closer look

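Peaks outside chromosomes 1 to 19, X and Y were used in no comparison. The lists held 13 and 23 such peaks for the EpCAM-positive fraction, against 13 and 13 for the EpCAM-negative fraction, 62 in all, and no control libraries are among the samples to set them against.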

How the results depend on the processing

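The number of narrow regions stayed within 1.5 times of 5658 under every alternative run, from 3852 with a width limit of 800 bp to 6208 without EpCAM-positive replicate 1, and was 5929 to 6208 when 1 library was left out. The share at the gene start was 97.6% with a distance limit of 500 bp, 94.5% with a width limit of 800 bp and 95.5% to 96.0% without 1 library. Regions called toward EpCAM-positive numbered 643 with a gap of 5 points (11.4%, against 10.4% of all shared regions). With 20 points they numbered 92 (1.63% against 1.65%), and without 1 library 725 to 954 (12.8% to 16.9% against 13.0% to 14.6%). Those toward EpCAM-negative numbered 128 ranked by −log10 p (2.26% against 5.56%) and 113 by pileup (2.00% against 4.76%). They numbered 403 with a gap of 5 points (7.12% against 11.3%) and 45 with 20 points (0.795% against 1.76%). Without 1 library they numbered 517 to 588 (9.14% to 10.4% against 13.1% to 14.6%). The share of CpG-rich windows was 83.5% in the last 150 bases of the window and 77.8% where the start lay within 200 bp of the summit. In those 150 bases 16.7% held the ETS motif, 19.7% the SP/KLF motif and 2.29% TATA. The whole window had 21.1%, 25.6% and 6.09%. Where the start lay within 200 bp of the summit the shares were 23.3%, 25.2% and 5.79%. The causes were not tested, apart from the smaller number of values that must stand apart when a library is left out.

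Same-numbered libraries were also taken as pairs. The Pearson correlation of their replicate differences was 0.133 over narrow regions, nothing in the labels says what a number marks, and with 2 pairs the exact permutation p cannot fall below 0.50. With the replicate block, 586 regions (10.4%) were called toward EpCAM-positive and 344 (6.08%) toward EpCAM-negative, against 9.42% and 9.40% of all shared regions. The differences in width (92.3 bp), relative pileup (0.0349) and summit distance (12.0 bp) were the same with the block as without it. The width difference was 70.3 to 114 bp without 1 library, that of relative pileup 0.0149 to 0.0549 and that of summit distance 1.00 to 23.0 bp, with the EpCAM-positive libraries higher under each alternative run.

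The counts for gene lists under other rankings, gaps and sets of libraries were chosen after seeing the data. Regions with few fragments have uncertain ranks, and no test was run on single regions. No genome sequence was used, so sequence was read only for promoter windows.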
